A study of Zea mays with 6 samples.

Results

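In maize, 13 transcripts without an entry in the KEGG Orthology catalogue were read in tips of the primary root (PR) and hardly at all in tips of crown roots (CR) or of seminal roots (SR). They were selected on their reads: a dash in the KEGG Orthology column, at least 20 uniquely aligned reads over the PR-salt and PR libraries together, and at most 2 over the CR-salt, CR, SR-salt and SR libraries together. These limits took 13 of the 48312 transcripts in the table. Of these 48312, 27261 had no KEGG entry, and 7910 of the 27261 reached 20 reads in the PR pair. The difference between PR and the other roots therefore chose the transcripts and is given below as a description, with no test. The division of the reads between PR-salt and PR was not used in the choice.

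The libraries came from root tips of seedlings of Zea mays cv Chang 7-2, grown in Hoagland's solution, and the tips were cut at 1 cm. Roots of 3 types were held for 24 h in solution with 100 mM NaCl (PR-salt, CR-salt, SR-salt) or in solution without added NaCl (PR, CR, SR). Primary roots were taken at 3 days after germination, seminal roots at 7 days and crown roots at 15 days, each with roots of 6 to 10 cm, so that root type and seedling age cannot be told apart. Each condition had 1 library, made from 10 to 15 pooled roots, and the spread between plants is unknown.

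The primary root is the first root of the maize seedling and grows from the embryo's own root pole. Seminal roots also form in the embryo, at the scutellar node, and crown roots form later on the stem. The tip of each holds the root cap, the meristem and the cells that begin to elongate, and it is the tissue that first meets salt in the solution. KEGG Orthology assigns genes to known enzymes and pathways, and a transcript without an entry can still carry Gene Ontology (GO) terms taken from similar proteins.

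The 6 libraries held a median of 2549512 uniquely aligned reads, the deepest 1.07 times the shallowest, and 35434 to 36112 transcripts had a read in each. At that depth 3 reads, the most that a count of 0 allows, were worth 1.13 to 1.20 CPM, the reads of a transcript scaled to the same total in every library. Such limits, and the intervals given below, cover counting error only. Transcripts annotated to photosynthesis, which would mark green shoot tissue, summed to 7698 CPM in PR-salt and 7143 in PR, against 6795 to 7225 in the CR and SR libraries. No seed storage term matched any transcript, so that list could show nothing. The photosynthesis, embryo development, heat and wounding lists held 536, 326, 55 and 14 of the 48312 transcripts. Of the 13, 0 were in these lists, which says little for lists of this size.

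Together the 13 transcripts had 190 reads in PR-salt and 1103 in PR, against 8 in CR-salt, 2 in CR, 5 in SR-salt and 0 in SR. A single transcript, GRMZM2G065585_T01, gave 42.1% of the reads in PR-salt and 69.9% of those in PR. Most of the others were thinly read. All 13 had a read in PR and 11 had a read in PR-salt, while 6 had a read in CR-salt, 2 in CR, 5 in SR-salt and 0 in SR. The PR library by itself held at least 20 reads for 10 of the 13, and the PR-salt library did so for 3. Per length (RPKM, reads scaled to transcript length and library size), their level had a median of 3.76 in PR-salt, with a range of 0 to 29.9, and a median of 19.5 in PR, with a range of 5.12 to 300. Over the 18130 transcripts that reached 20 reads in the PR pair the medians were 21.4 RPKM in PR-salt and 21.5 RPKM in PR. The 13 thus stood near the middle of these 18130 in PR, and 6 of them lay above the median of the 18130 there, but only 3 did so in PR-salt.

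**Figure D1:**
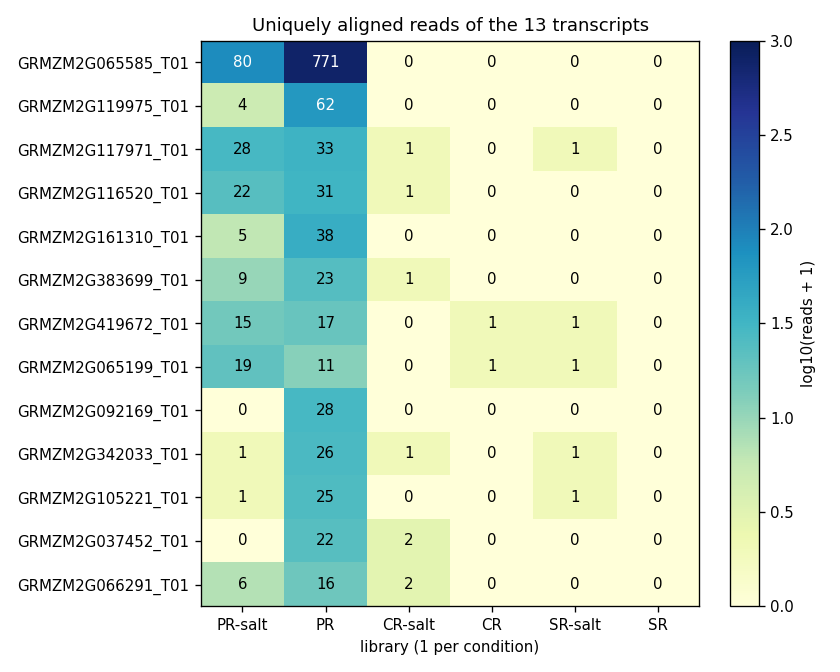
Uniquely aligned reads of each of the 13 transcripts (rows) in each of the 6 libraries (columns, salt-treated library left of its control). All 13 transcripts have reads in PR and 11 have reads in PR-salt, and no cell outside the PR pair exceeds 2 reads.

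Of the 15 reads that the 13 transcripts had outside the primary root, 13 lay in the salt-treated CR-salt and SR-salt libraries and 2 in CR. The transcripts with 0 outside reads were GRMZM2G065585_T01, GRMZM2G119975_T01, GRMZM2G161310_T01 and GRMZM2G092169_T01. A further 3 had 1 outside read and 6 had 2. At the upper limit of the rule, GRMZM2G164715_T01 had 13 reads in PR-salt and 42 in PR against 3 outside reads, and GRMZM2G467893_T01 had 10 in PR-salt and 30 in PR against 3 outside, so both fell just beyond it. At the lower limit, GRMZM2G037452_T01 and GRMZM2G066291_T01 had 22 reads in the PR pair. The nearest transcripts below the limit, GRMZM2G123107_T01 and GRMZM2G119705_T01, had 17 each, with 0 and 2 outside reads.

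Turning the same rule round gave 0 transcripts without a KEGG entry for the crown root, out of 7755 with at least 20 reads in the CR pair, and 0 for the seminal root, out of 7860. Among transcripts with a KEGG entry the counts were 11 for the primary, 0 for the crown and 1 for the seminal root. The reverse pattern also occurred: 9 transcripts without a KEGG entry had at most 2 reads in the PR pair and at least 20 in each of the CR and SR pairs, and 0 did so for either of the other roots. The PR libraries thus differed from the CR and SR libraries in both directions. These are counts in 6 libraries and were not tested.

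**Figure D2:**
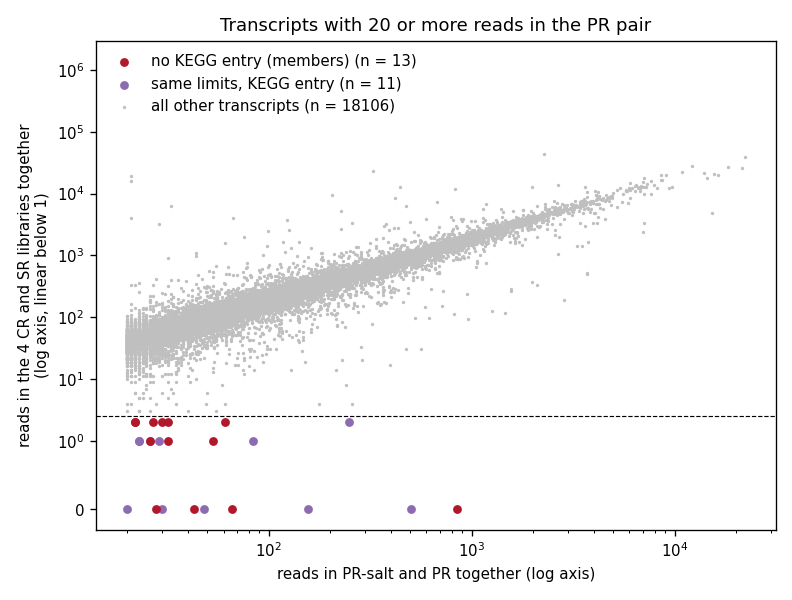
Reads in PR-salt and PR together (x axis, log scale) against reads in the 4 CR and SR libraries together (y axis, log scale, linear below 1) for the 18130 transcripts that reached 20 reads in PR-salt and PR; red, the 13 without a KEGG entry, purple, the 11 with an entry under the same limits, grey, the other 18106. The dashed line separates at most 2 outside reads from more, and some points lie on top of each other.

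The most abundant of the 13 was GRMZM2G065585_T01 (1005 bases), listed in RefSeq under the synonyms geb1 and pr6 and annotated as a glycosyl hydrolase with the terms defense response to fungus, osmotic stress and extracellular region. Enzymes of family 17 of the glycosyl hydrolases cut beta-glucans such as callose and fungal wall glucan, and several are known as pathogenesis-related proteins. It had 80 reads in PR-salt and 771 in PR, against 0 in each of CR-salt, CR, SR-salt and SR. In RPKM its level was 29.9 in PR-salt, at percentile 79.9 of the 36031 transcripts with a read there. In PR it was 300, at percentile 98.7 of the 36112 with a read. Set against the floor of 3 reads over the other 4 libraries, its CPM in the PR pair was at least 553-fold higher. It was 10.0-fold lower in PR-salt than in PR, a log2 ratio of CPM of -3.33 (95% exact interval -3.68 to -2.99, Audic-Claverie test, FDR = 1.55e-145). The Audic-Claverie test asks whether the reads of a transcript in 2 libraries could come from the same share of the total, and so it compares these libraries and carries no replicate check.

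GRMZM2G117971_T01 (450 bases) and GRMZM2G419672_T01 (519 bases) carry the same GO process terms, among them response to hormone, osmotic stress and defense response to fungus. GRMZM2G117971_T01 had 28 reads in PR-salt and 33 in PR, against 1 in CR-salt, 0 in CR, 1 in SR-salt and 0 in SR. GRMZM2G419672_T01 had 15 reads in PR-salt and 17 in PR, against 0 in CR-salt, 1 in CR, 1 in SR-salt and 0 in SR. The salt and control libraries of the primary root were close for both, unlike those of GRMZM2G065585_T01. The log2 ratio of PR-salt to PR was -0.30 for GRMZM2G117971_T01 (95% exact interval -1.08 to 0.48, Audic-Claverie FDR = 0.804) and -0.24 for GRMZM2G419672_T01 (-1.34 to 0.85, FDR = 0.863). A 2-fold fall lies inside both intervals, so a change of that size was not detectable at this depth.

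GRMZM2G116520_T01 (294 bases) is annotated as an endopeptidase inhibitor, a class of small proteins that block proteases. It had 22 reads in PR-salt and 31 in PR, against 1 in CR-salt and 0 in CR, SR-salt and SR. Its log2 ratio of PR-salt to PR was -0.55 (95% exact interval -1.41 to 0.28, Audic-Claverie FDR = 0.804), which did not pass the test. In RPKM its level was 28.1 in PR-salt and 41.2 in PR.

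Among the 36 transcripts annotated as endopeptidase inhibitors, 20 reached 20 reads in the PR pair. Of these, 3 were called lower in PR-salt, against 1.08% of the 18130, and 0 higher, with a median log2 ratio of -0.30. GRMZM2G156632_T01, which missed the limits of the rule with 4 outside reads, had 61 reads in PR-salt and 198 in PR, a log2 ratio of -1.76 (Audic-Claverie FDR = 6.88e-17). GRMZM2G028656_T01 had 6 reads in PR-salt and 53 in PR, with 0 in CR-salt, 4 in CR, 2 in SR-salt and 2 in SR. Both thus had most of their reads in the PR pair, as GRMZM2G116520_T01 did, but passed the limit on outside reads. Unlike GRMZM2G116520_T01, both were called lower in PR-salt, GRMZM2G028656_T01 with a log2 ratio of -3.20 (Audic-Claverie FDR = 8.02e-09).

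GRMZM2G161310_T01 (1347 bases), with the RefSeq synonym mfsd1 and the terms plant-type vacuole, divalent cation homeostasis and response to metal ion, had 5 reads in PR-salt and 38 in PR, against 0 in each of the CR and SR libraries. It was 7.91-fold lower in PR-salt (log2 ratio -2.98, 95% exact interval -4.69 to -1.64, Audic-Claverie FDR = 9.70e-06). GRMZM2G119975_T01 (399 bases), annotated to cation binding, had 4 reads in PR-salt and 62 in PR, and likewise 0 in each of the CR and SR libraries. It was 16.1-fold lower in PR-salt (log2 ratio -4.01, -5.93 to -2.58, FDR = 1.01e-12). Both were called lower, against 1.08% of the 18130, but both reached 20 reads through PR alone, which favours a lower value in PR-salt. Calls among all transcripts with a cation term were not counted.

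GRMZM2G342033_T01 (522 bases), annotated to response to stress, had 1 read in PR-salt and 26 in PR, against 1 in CR-salt, 0 in CR, 1 in SR-salt and 0 in SR. Its log2 ratio of PR-salt to PR was -4.76 with a wide 95% exact interval of -10.12 to -2.15, since the ratio rests on a single read in PR-salt (Audic-Claverie FDR = 1.70e-05). GRMZM2G105221_T01 (1590 bases), a transferase by its GO function, had 1 read in PR-salt and 25 in PR, against 0 in CR-salt, 0 in CR, 1 in SR-salt and 0 in SR. Its log2 ratio was -4.70 (-10.06 to -2.09, FDR = 3.15e-05). Both were nearly unread in PR-salt, and the upper end of each interval still lay beyond a 4-fold fall. Both also reached 20 reads through PR alone, which favours a lower value in PR-salt.

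GRMZM2G092169_T01 (1245 bases) and GRMZM2G065199_T01 (597 bases) carry no GO term beyond a membrane-bounded organelle of the cell. GRMZM2G092169_T01 had 0 reads in PR-salt and 28 in PR, with 0 in each of the CR and SR libraries, so it was read in the PR library alone. Against the floor of 3 reads in PR-salt it was at least 9.72-fold lower there, with its 28 reads in PR taken as exact. The 95% exact interval, which covers the counting error of both libraries, had its upper end at a log2 ratio of -2.89 (Audic-Claverie FDR = 3.65e-07). GRMZM2G065199_T01 had 19 reads in PR-salt and 11 in PR, against 0 in CR-salt, 1 in CR, 1 in SR-salt and 0 in SR. It was the only one of the 13 with more reads in PR-salt, a log2 ratio of 0.73 (95% exact interval -0.41 to 1.95), and it did not pass the test (FDR = 0.804).

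The remaining 3 transcripts, GRMZM2G383699_T01, GRMZM2G037452_T01 and GRMZM2G066291_T01, carry no GO term. GRMZM2G037452_T01, the shortest of the 13 with 210 bases, had 0 reads in PR-salt and 22 in PR, against 2 in CR-salt and 0 in CR, SR-salt and SR. Against the same floor, with its reads in PR taken as exact, it was at least 7.64-fold lower in PR-salt, and the upper end of its 95% exact interval was a log2 ratio of -2.51 (Audic-Claverie FDR = 1.96e-05). A second transcript of the same gene, GRMZM2G037452_T03 (168 bases), had 1 read in PR and 0 in the other 5 libraries. The other pair had fewer reads in PR-salt without a call. GRMZM2G383699_T01 (309 bases) had 9 reads in PR-salt and 23 in PR, against 1 in CR-salt and 0 in CR, SR-salt and SR (log2 ratio -1.41, 95% exact interval -2.71 to -0.25, FDR = 0.213). GRMZM2G066291_T01 (1221 bases) had 6 reads in PR-salt and 16 in PR, against 2 in CR-salt and 0 in CR, SR-salt and SR (log2 ratio -1.47, -3.12 to -0.05, FDR = 0.386). With their sums of reads, a lower call needed at most 4 reads in PR-salt for GRMZM2G383699_T01 and at most 1 for GRMZM2G066291_T01.

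Over the whole set, 7 of the 13 transcripts (53.8%) were called lower in PR-salt than in PR, at an FDR of at most 0.001 and a log2 ratio of RPKM of at least 1 in size, and 0 were called higher. Over the 18130 transcripts that reached 20 reads in the PR pair, 195 (1.08%) were called lower and 13 (0.0717%) higher. Of the 7091 with 20 to 66 reads, a range that holds the 13 apart from GRMZM2G065585_T01, 35 were called lower (0.494%). Reaching 20 reads in the pair bears on these counts, because a transcript that reached it through PR alone had to be lower in PR-salt. PR held at least 20 reads and PR-salt fewer for 7 of the 13, against 4.91% of the 18130, and 6 of the 7 called transcripts were among them. The exception was GRMZM2G065585_T01. The other 4 with at least 10 reads in PR-salt, GRMZM2G117971_T01, GRMZM2G116520_T01, GRMZM2G065199_T01 and GRMZM2G419672_T01, were not called. The counts over the 13 are therefore a description of the set. Among the 7910 without a KEGG entry 88 were called lower (1.11%) and 4 higher.

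By fold with no test, 9 of the 13 were at least 2-fold lower in PR-salt, against 652 (3.60%) of the 18130, and 0 were at least 2-fold higher, against 334 (1.84%). Among transcripts with 20 to 66 reads in the pair, 455 of 7091 were at least 2-fold lower and 310 at least 2-fold higher. The 9 were the 7 called transcripts with GRMZM2G383699_T01 and GRMZM2G066291_T01. The median log2 ratio, with 1 read added in each library, was -2.76 over the 13, with a range of -4.92 to 0.68, and 0.03 over the 18130. Without GRMZM2G065585_T01, 6 of 12 were called and the median was -2.05, and all 6 were among those that reached 20 reads through PR alone. The 7 called transcripts together had 91 reads in PR-salt and 972 in PR, whereas the 6 others had 99 in PR-salt and 131 in PR. The calls were made with counting error alone: with a biological coefficient of variation of 0.2 or 0.4 assumed in edgeR's exact test, 2 and 0 of the 13 were called at the same FDR limit. At an unadjusted p under 0.05, 7 were past the test at either value, against 2.65% of the 18130 at 0.2 and 0.695% at 0.4.

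**Figure D3:**
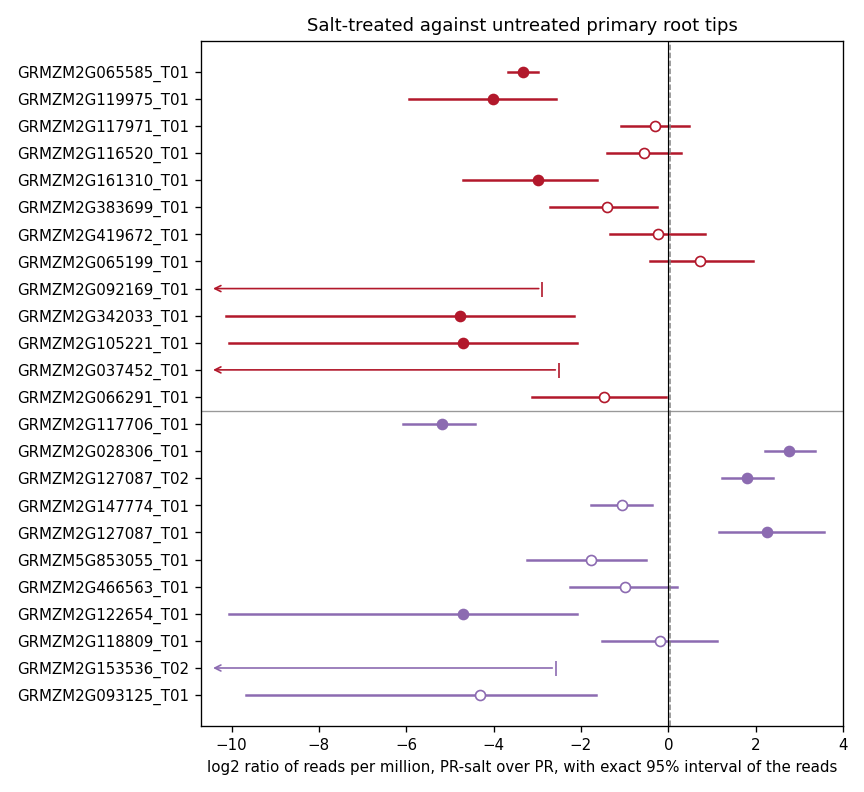
Log2 ratio of PR-salt to PR (x axis) with its 95% exact counting interval for the 13 transcripts without a KEGG entry (red, above) and the 11 with an entry under the same limits (purple, below). Filled points were called, open points were not, arrows mark called transcripts with 0 reads in PR-salt, and the dashed line is the median of all transcripts with at least 20 reads, 0.03; 12 of the 13 red transcripts lie to its left.

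The 4 transcripts with 0 outside reads were all called lower, with a median log2 ratio of -3.51, against 1.08% called lower of the 18130. All but GRMZM2G065585_T01 reached 20 reads through PR alone, which favours a lower value in PR-salt. Outside reads were also part of the rule, so this is a description and was not tested. The 6 that were not called all had 1 or 2 outside reads, and so had 3 of the called ones.

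The 11 transcripts with a KEGG entry that met the same limits on reads moved in both directions. Of these, 3 were called lower and 3 higher in PR-salt, with a median log2 ratio of -1.03. Over the 18130 the shares were 1.08% lower and 0.0717% higher. The 3 lower ones were GRMZM2G117706_T01, a peroxidase with 14 reads in PR-salt and 491 in PR, GRMZM2G122654_T01, a cytochrome P450 with 1 and 25, and GRMZM2G153536_T02, a branched-chain amino acid aminotransferase with 0 and 23. Among the higher ones was GRMZM2G028306_T01, a (S)-beta-macrocarpene synthase of terpene defence metabolism, which had 219 reads in PR-salt and 31 in PR. The other 2, GRMZM2G127087_T01 with 40 reads in PR-salt and 8 in PR and GRMZM2G127087_T02 with 123 and 34, are transcripts of the same gene. All 3 higher transcripts had (S)-beta-macrocarpene synthase as their first KEGG entry. Higher calls thus occurred among primary root transcripts with a KEGG entry, all for this enzyme, and not among the 13 without. The difference between these sets was not tested.

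GO terms for inhibitors or defence were found in 4 of the 13 (30.8%), GRMZM2G065585_T01, GRMZM2G117971_T01, GRMZM2G419672_T01 and GRMZM2G116520_T01. Among the 7910 transcripts without a KEGG entry and with at least 20 reads in the PR pair, 76 (0.961%) held such a term. The term defense response to fungus alone was held by 3 of the 13 and by 9 of the 7910 (0.114%), and osmotic stress by 3 of the 13 and by 53 of the 7910 (0.670%). These are shares of a set selected on its reads and were not tested. GRMZM2G117971_T01 and GRMZM2G419672_T01 hold the same list of process terms. They and GRMZM2G116520_T01 were also covered over less than 0.5 of what evenly placed reads would cover, as described below. Of the 4 with an inhibitor or defence term, 1 was called lower under salt, against 8 of the 304 with such a term among the 18130. In the 18130, 28 transcripts held the fungus term, 2 were called lower and 0 higher, and their median log2 ratio was -0.13. None of the 13 carried a term for peroxidase or oxidoreductase, kinase or receptor, transcription, transport, lipid or ribosome. These groups were also small among the 7910, from 0.392% for ribosome to 4.36% for transport. A count of 0 among 13 therefore does not set them apart. No GO term at all was found for 3 of the 13 (23.1%), against 49.7% of the 7910.

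The 13 were short. Their median length was 522.0 bases, with a range of 210 to 1590, and 8 of 13 (61.5%) were under 600 bases, against a median of 798.0 bases and 38.2% under 600 among the 7910. Over all 18130 the median was 1080 bases.

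Relatives by annotation were taken as the transcripts with the same list of GO process terms. For GRMZM2G065585_T01 these were 9 transcripts including itself, and their summed reads were 229 in PR-salt, 934 in PR, 85 in CR-salt, 151 in CR, 114 in SR-salt and 113 in SR. GRMZM2G125032_T01, with the RefSeq synonyms glucA and Gns1, had 107 reads in PR-salt, 111 in PR, 18 in CR-salt, 11 in CR, 60 in SR-salt and 28 in SR. Its log2 ratio of PR-salt to PR was -0.11 (Audic-Claverie FDR = 0.841), so it was read in all 3 roots and not called. GRMZM2G137535_T01 had 39 reads in PR-salt, 35 in PR, 65 in CR-salt, 137 in CR, 48 in SR-salt and 85 in SR. GRMZM2G123107_T01 had 2 reads in PR-salt and 15 in PR and 0 in each of the other 4, the same order as GRMZM2G065585_T01 at far lower depth (log2 ratio -2.97, 95% exact interval -6.14 to -0.86, FDR = 0.0416, not called).

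The process terms of GRMZM2G117971_T01 were shared by 5 transcripts, and all 5 had more reads in each PR library than in any other. Their summed reads were 67 in PR-salt and 84 in PR, against 8 in CR-salt, 2 in CR, 5 in SR-salt and 2 in SR, and 0 were called. GRMZM5G817967_T01 had 14 reads in PR-salt and 20 in PR, against 4, 0, 1 and 1 in CR-salt, CR, SR-salt and SR. GRMZM2G117989_T02, whose gene has the RefSeq synonym inra2(prp) and lies 2 genes from GRMZM2G117971, had 8 reads in PR-salt and 10 in PR, against 3, 0, 2 and 1. Only reads with a unique position were counted, and reads that fit near-identical copies are missing from these values. The counts of the group are therefore uncertain.

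The process terms of GRMZM2G161310_T01 were shared by 8 transcripts, of which GRMZM2G063306_T02 had the opposite pattern. It had 28 reads in PR-salt and 5 in PR, against 1517 in CR-salt, 1863 in CR, 1498 in SR-salt and 1339 in SR. GRMZM2G063306_T01 of the same gene had 0 in both PR libraries and 29 to 48 in the other 4. Within the primary root GRMZM2G063306_T02 had a log2 ratio of PR-salt to PR of 2.43 (95% exact interval 1.04 to 4.16, Audic-Claverie FDR = 0.00435), which missed the call.

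**Figure D4:**
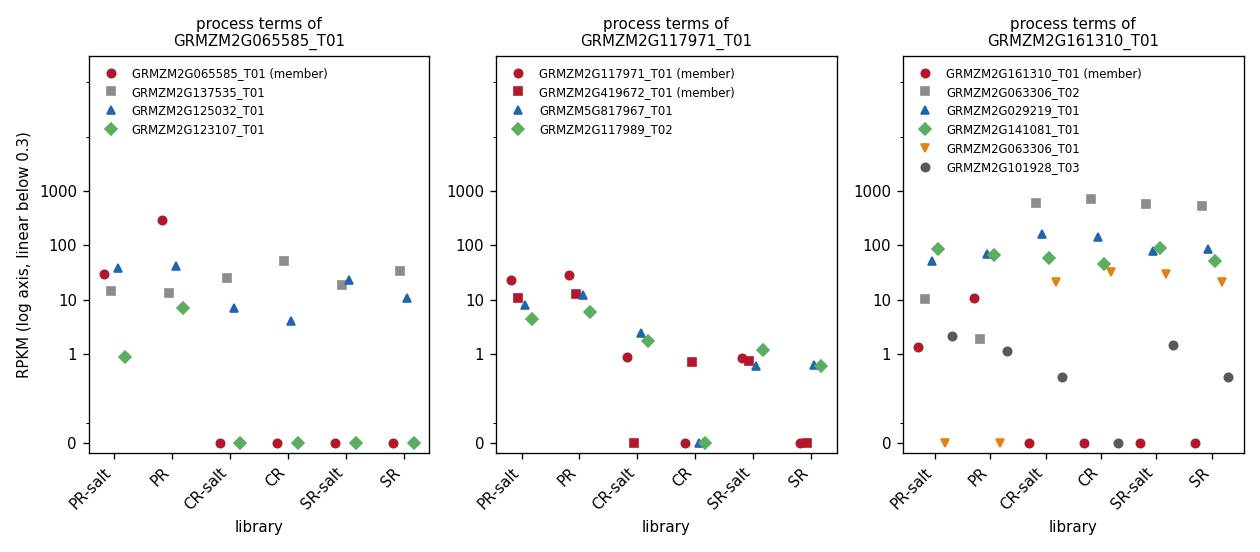
Level in RPKM (y axis, log scale, linear below 0.3) in each of the 6 libraries (x axis) for transcripts that share the list of GO process terms of GRMZM2G065585_T01, GRMZM2G117971_T01 or GRMZM2G161310_T01 and have at least 10 reads in all; red points are among the 13. The red points have at most 1 read in any library outside the PR pair. In the right panel, GRMZM2G063306_T02 and GRMZM2G063306_T01 are instead lowest in PR-salt and PR.

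The reads of most of the 13 were spread along the transcript. The deposited coverage, the percent of transcript bases under a read, was compared with what the number of reads, their length of 49 bases and the transcript length would give if reads fell evenly. In PR, GRMZM2G065585_T01 was covered over 99.8% of its length where 99.8% was awaited from even reads, GRMZM2G161310_T01 over 53.4% where 74.7% was awaited, and GRMZM2G342033_T01 over 85.6% where 89.0% was awaited. In whichever of the PR libraries held more reads, the median of observed over even coverage was 0.902 for the 13 and 0.844 for the 18130. For 4 of the 13 (30.8%) the ratio was under 0.5, against 23.2% of the 18130. Among transcripts with 20 to 61 reads in the pair, closer in depth to most of the 13, the median was 0.747 and the share under 0.5 was 31.4%, near that of the 13. The 4 under 0.5 were GRMZM2G117971_T01 with 21.3% covered in PR, GRMZM2G419672_T01 with 21.4%, GRMZM2G116520_T01 with 45.6% and GRMZM2G037452_T01 with 36.2%. Their reads came from less of the annotated transcript than evenly placed reads would cover. The first 3 were among the 6 not called under salt. Without all 4, 6 of 9 were called lower.

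**Figure D5:**
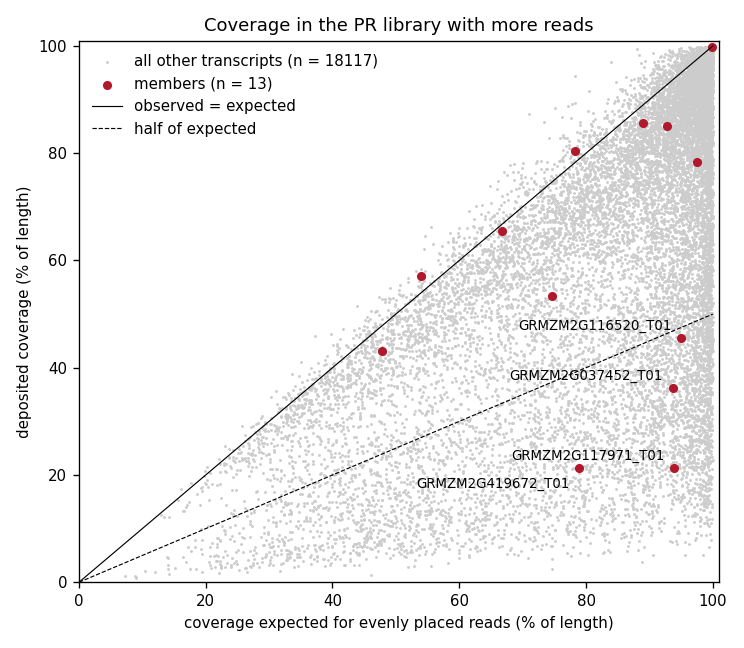
Percent of each transcript covered by reads (y axis) against the percent that evenly placed reads would cover (x axis), in whichever of PR-salt and PR held more reads, for the 13 transcripts (red) and the other transcripts that reached 20 reads in the pair (grey). The solid line marks equal values and the dashed line 0.5 of the even coverage. GRMZM2G117971_T01, GRMZM2G419672_T01, GRMZM2G116520_T01 and GRMZM2G037452_T01 lie under the dashed line.

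RefSeq gave a match for 5 of the 13 genes, GRMZM2G065585, GRMZM2G117971, GRMZM2G161310, GRMZM2G105221 and GRMZM2G037452. Their nearest measured neighbours on either side, 1 to 7 genes away, were 10 genes, of which 0 were among the 13 and 7 had reads in all 6 libraries. GRMZM2G037422, next to GRMZM2G037452, had 39 reads in PR-salt, 26 in PR, 45 in CR-salt, 32 in CR, 39 in SR-salt and 47 in SR. GRMZM2G096548, next to GRMZM2G161310, had 42 to 54 reads in every library. Both measured neighbours of GRMZM2G065585 were nearly unread, with 0 to 2 reads in each library for GRMZM2G019185 and for GRMZM2G366622.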

How the data were processed

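RNA from root tips was reverse transcribed with random primers and sequenced on an Illumina instrument. The authors aligned the reads with SOAP to the B73 reference, and the deposited table gives, per transcript and library, uniquely aligned read counts, RPKM and the percent of the transcript covered. No ratio made by the authors was used. Each library's columns matched a labelled sample, with 0 sample columns left over. A dash in a count column was read as 0.

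PR-salt and PR were compared by the Audic-Claverie test, 2-sided, on the deposited counts over the 40841 transcripts with a read in either library. It used Benjamini-Hochberg adjustment, an FDR limit of 0.001 and a log2 ratio limit of 1 (RPKM of 0 set to 0.01). The calls were also run on simulated reads with counting error alone, which cannot show how they fare under variation between plants. Intervals are exact (Clopper-Pearson, 95%). The labels speak of replicates, but there was 1 library per condition, so p-values measure counting error between libraries. Alternatives used edgeR 4.0.16, DESeq2 1.42.0 size factors, Fisher's exact test and other limits, with Python 3.11.15, scipy 1.17.1 and R 4.3.3. The rule for named transcripts took the most read, the called and those at the limits; all 13 are described, and relatives, neighbours and inhibitors outside it were chosen after their values were seen. The 13 transcripts, the lists and the tests were chosen with earlier results of these data known. RefSeq served for names and gene order alone, since its assembly differs from the authors' build. No sequence of these transcripts was used here.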

Additional observations from a re-analysis of the deposited data

How the results depend on the processing

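The number of transcripts meeting the rule moved with its limits: 24 with at least 10 reads in the PR pair and 4 with at least 50, 4 with 0 outside reads and 22 with up to 5, and 6 with 10 reads asked of PR-salt alone, against 13 as reported. It was 15 with 10 reads asked of PR alone, 13 counted by gene and 9 with libraries scaled to the median library. The count of 7 lower calls was 7 under Fisher's exact test, an FDR limit of 0.05, no ratio limit, a ratio limit of 1.5, TMM or DESeq2 scaling, 1 read added, adjustment over transcripts that reached 20 reads and both tails with the observed count. It was 2 with edgeR's exact test at a biological coefficient of variation of 0.2, 0 at 0.4 and 2 with the common dispersion estimated over the root types. Over all transcripts the calls numbered 212 as reported, 373 at an FDR limit of 0.05, 467 with no ratio limit, and 39, 0 and 26 under the edgeR settings. The median log2 ratio of -2.76 was -2.16 with 5 reads added and -1.92 over the 4 transcripts that reached 50 reads, of which 2 were at least 2-fold lower, against 9 of 13. Of 156 values of single transcripts under the alternatives, 139 kept call and direction, 17 lost the call, each under edgeR, and 0 reversed. The 156 include those of the 6 transcripts not called, which had no call to lose. GRMZM2G065585_T01 and GRMZM2G119975_T01 lost the call at 0.4 alone, and the other called transcripts lost it under every edgeR setting. The tails and the restriction by coverage were chosen after seeing the data. No paired analysis was possible because the labels number no replicates and the primary root had 1 library per treatment. Depth limits 8 of the 13, for which a lower call needed 4 or fewer reads in PR-salt.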

Other observations

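Outside the set, 58 transcripts without a KEGG entry had at most 2 reads in the PR pair and at least 20 over the 4 CR and SR libraries. The transcript GRMZM2G161521_T01 missed the limits with 4 outside reads, and it had 76 reads in PR-salt and 102 in PR. Of the reads outside the primary root, the 11 transcripts with a KEGG entry had 1 in CR-salt, 1 in CR, 3 in SR-salt and 2 in SR, whereas the 13 without had 8, 2, 5 and 0 in that order.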
